A study of Drosophila melanogaster with 6 samples.

Results

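Methotrexate, an antifolate drug, was tested in whole Drosophila melanogaster: the ovaries of flies given the drug at 5 ppm for 5 days, were set against the ovaries of flies given none. The material is the 2 ovary arrays of a series of 6; the other 4 arrays hold S3 cells, a cultured fly line. Both arrays are spotted cDNA arrays on which treated and untreated RNA were hybridised together, each in its own dye. They were chosen by their sample titles, and the values used are those of all spots that the probe annotation assigns to exactly 1 gene. These are 5666 of 16896 spots and 2377 genes. A further 152 spots had several genes and 11078 had none, and these were not named. The strain, sex ratio and age of the flies, and the number of animals pooled, are not given in the sources used here. Nothing in the labels says that the arrays came from separate flies, so the p-values rest on the difference between 2 hybridisations, and that spread may be technical.

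The fly ovary is a row of egg chambers in which germline cells, the nurse cells and the oocyte, are wrapped by somatic follicle cells. Nurse cells copy their genome many times over and load the oocyte with RNA and protein, while follicle cells secrete the eggshell. Methotrexate blocks dihydrofolate reductase, and so starves thymidylate and purine synthesis, on which DNA replication depends.

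What a positive or negative ratio means for the drug is not settled. The labels put Cy5 on the RNA of treated flies each time, listed first for array 1 and second for array 2, whereas the series text speaks of swapped dyes. Neither source states the numerator of the deposited ratios or the base of their logarithm, which is taken here as 2. Ratios are therefore given by sign alone, and a positive ratio cannot be read as higher or lower in treated ovaries. With Cy5 on the treated RNA of both arrays, a gene's dye effect and its treatment effect cannot be told apart. Fewer cells of a type and less RNA per cell cannot be told apart either. Ratios hold no level, so the ovary label could not be checked against the presence of its markers.

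The same spot positions gave much the same ratio on both arrays. Over the 2377 genes the arrays correlated at r = 0.753 with each array centred on its median, and at 0.747 with print blocks and rows centred. These are correlations across genes, which are not independent replicates. A gene had the same sign on both arrays for 82.0% of genes under the former centring and 75.6% under the latter. Array 1 spread more widely than array 2, with a standard deviation over genes of 0.838 against 0.651. The 2 neighbouring spots of a clone correlated at 0.903 on array 1 and 0.841 on array 2 over 2833 pairs, and their within-pair standard deviation was 0.271 and 0.275.

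Other positions of the same gene tracked its ratio weakly or not at all. Among genes with 2 to 4 clone positions there were 441 pairs of positions, from 274 genes. Their mean ratios correlated at r = 0.19 with array medians centred and at -0.04 with blocks and rows centred. The same sign was found in 296 of the 441 pairs (67.1%) in the former case and in 219 (49.7%) in the latter. For the 128 pairs of positions whose clones share a GenBank accession, r was -0.08 and -0.07, and 92 (71.9%) and 65 pairs (50.8%) had the same sign. Of the 13 genes with several positions that are called below under both centrings, 13 and 11 had the same sign at every position, but these calls were made on the average over positions. A ratio was thus repeatable at its own position, while other positions annotated to the same gene showed little of it. Every gene name below is the annotation's name for a position and may not be the gene that was measured there, which was not tested. Of the 376 genes described as called under both centrings, 363 were measured at 1 position only.

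**Figure D1:**
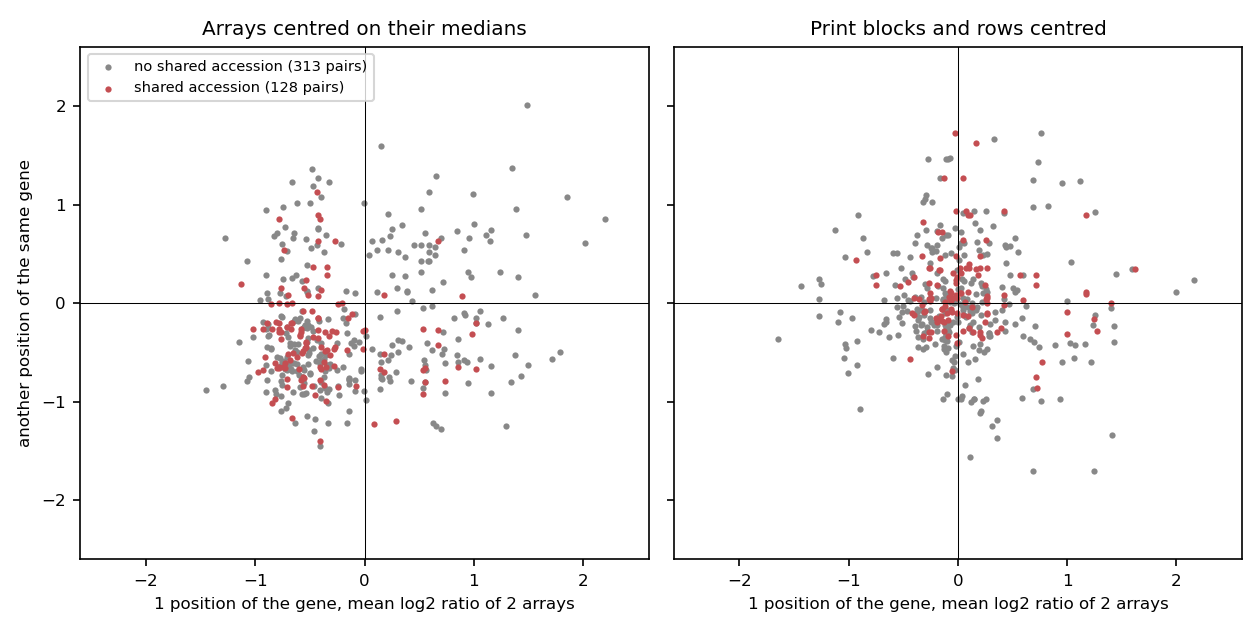
Each point is a pair of clone positions that the annotation gives to the same gene, with the mean log2 ratio of the 2 arrays at 1 position on the x axis and at the other on the y axis; red points share a GenBank accession. The clouds follow no diagonal: r is 0.19 over the 441 pairs with array medians centred (left) and -0.04 with print blocks and rows centred (right).

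The comparison asked which genes differed between the ovaries of treated and untreated flies. Ranked by the smaller of the means under the 2 centrings, the leading positive genes included kra (translation), Droj2 (a co-chaperone), Sox21b and NFAT (transcription factors) and Svil (actin binding), with means of 1.67 to 2.42 with array medians centred. By the same ranking the leading negative genes included pippin (a transporter), PolH (a translesion polymerase), Hcf and woc (chromatin and transcription) and Mekk1 (a stress kinase), with means of -1.65 to -1.21. With array medians centred, 926 of 2377 genes (39.0%) passed limma's adjusted p threshold of 0.05, and of these 497 (20.9%) were positive and 429 (18.0%) negative. With print blocks and rows centred it called 615 (25.9%), of which 350 (14.7%) were positive and 265 (11.1%) negative. Called on the same side under both were 376 genes (15.8%), 254 positive (10.7%) and 122 negative (5.13%). They make up 40.6% of the former calls and 61.1% of the latter, and 0 genes were called on opposite sides. All these calls take the sign of array 2 as deposited. With that sign turned, limma called 0 genes under either centring. Which sign holds for the drug is not settled, since the sources differ on the dyes. With array medians limma gave every gene the same standard error, 0.276, so that a call there is a mean at least 0.65 from 0, however far apart the arrays lie. With blocks and rows centred the errors differed between genes, and the smallest mean called was 0.56 from 0. A mean of at least 1 on the log2 scale under both centrings was reached by 107 genes, 89 positive and 18 negative. Of the 376 genes 375 had the same sign on both arrays under both centrings. The ratio was further from 0 on array 1 than on array 2 for 280 of the 376. In a fit that takes the spread from the S3 arrays as well, limma called 306 of 1816 genes with array medians and 211 with blocks and rows, against 722 and 391 of the same genes from the ovary arrays alone. Where ovary blocks and rows were centred in that fit, the S3 arrays were centred on print blocks only. The 106 called under both were all among the 268 of the 376 that are on both designs. In that limma fit array 2 alone gave 0 calls under either centring (243 and 186 genes at an unadjusted p under 0.05). Array 1 alone gave 1 call with array medians and 37 with blocks and rows.

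**Figure D2:**
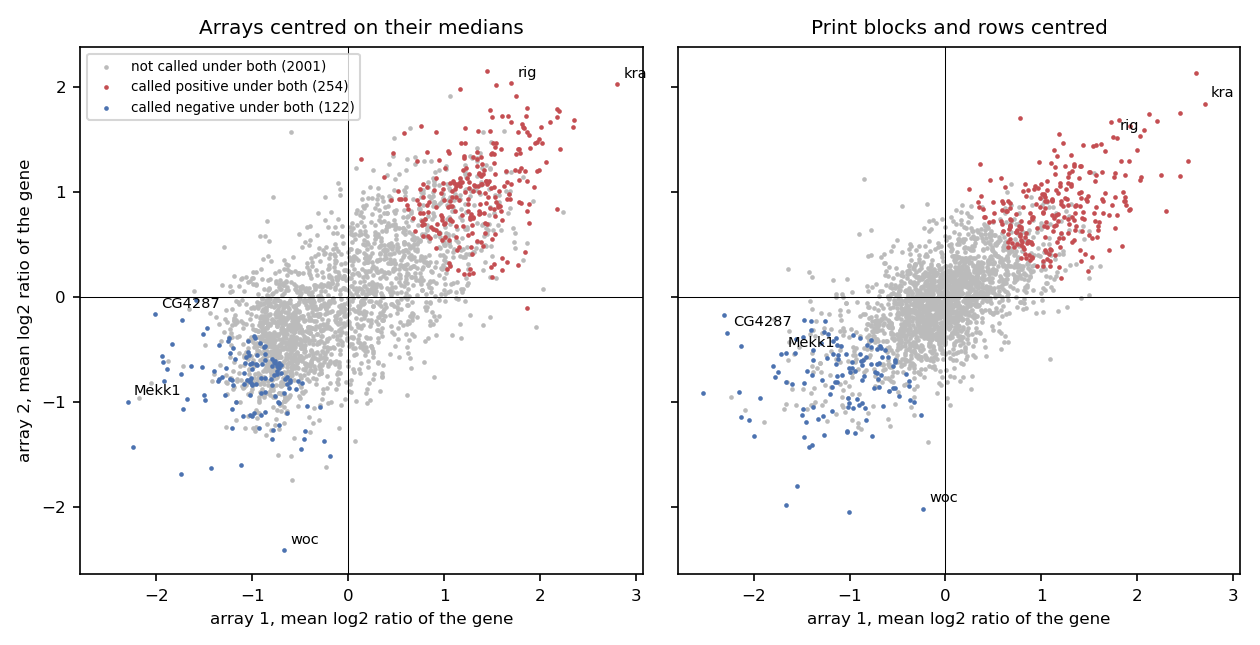
Each point is 1 of 2377 genes, with its log2 ratio on array 1 (x axis) and array 2 (y axis), centred on array medians (left) or on print blocks and rows (right). The 254 red genes were called positive and the 122 blue genes negative under both centrings; woc and CG4287 lie far from the diagonal.

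Ratios differed between the rows of the print blocks. The ovary design has 32 print blocks of 22 rows, each of 24 spots. With array medians centred, the median of a row over all blocks ran from 1.02 (row 1) to -0.75 (row 21) on array 1, and from 0.57 (row 11) to -0.46 (row 21) on array 2. All rows from 17 to 22 had negative medians on both arrays. Row 21 held 192 genes measured at 1 position. With array medians 93 of them were called negative and 2 positive, and under both centrings 4 negative and 2 positive. With blocks and rows centred 4 were negative and 16 positive. Row 15, with medians of 0.60 and 0.48, went from 49 positive and 3 negative calls with array medians to 15 and 25. Row centring thus removed calls on one side and added calls on the other. Row 1 held 56 such genes, with 31 positive calls under array medians and 3 under both. Row 12, whose medians were 0.03 and 0.13, had 38 positive and 16 negative calls among 127 genes, of which 24 and 9 stood under both centrings. What else the clones of a row share was not tested.

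**Figure D3:**
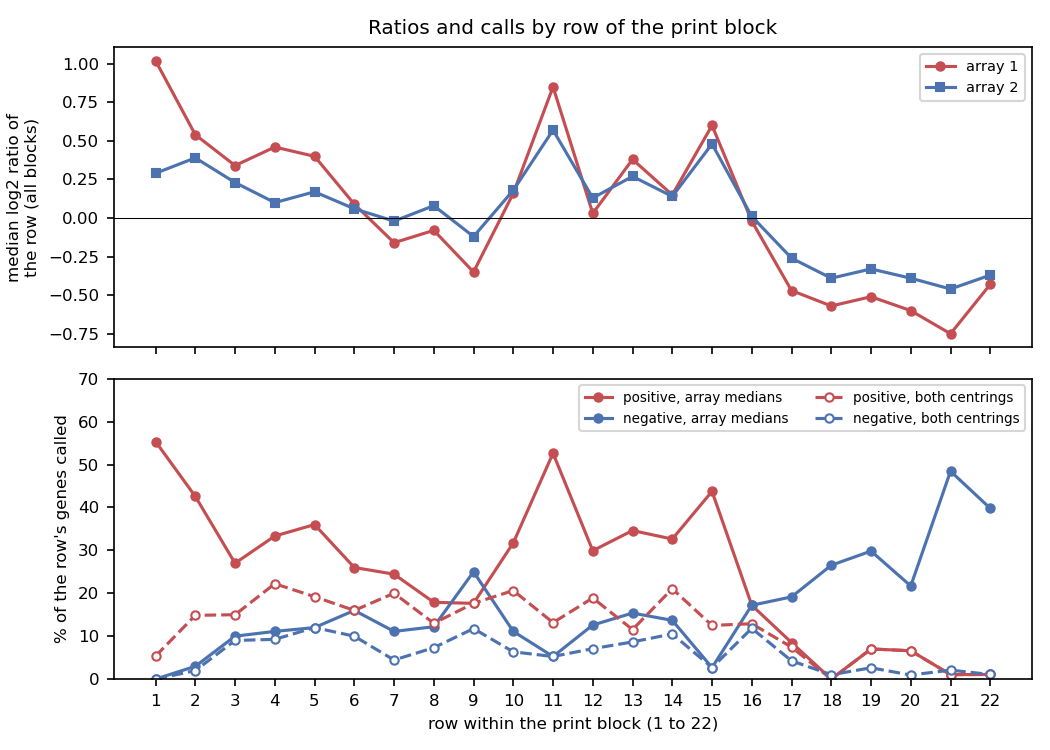
The upper plot gives the median log2 ratio of each of the 22 rows within the print block, over all 32 blocks, for arrays 1 and 2 with array medians centred. The lower plot gives the share of a row's single-position genes that were called; negative calls reach 93 of 192 genes in row 21 with array medians and 4 of 192 under both centrings.

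In the paragraphs that follow, the values of a gene are its log2 ratios on array 1 and array 2 with array medians centred, then, in brackets, the same pair with blocks and rows centred.

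On the positive side kra stood first. It encodes a regulator of translation initiation, and its ratios were 2.81 and 2.03 (2.70 and 1.84), a mean of 2.42 ± 0.55 with array medians (SD, n = 2; limma adjusted p = 8.6e-15) and 2.27 ± 0.61 with blocks and rows (SD, n = 2; limma adjusted p = 0.00017). Both arrays were high under either centring, array 1 the higher. CG9853 followed with 2.34 and 1.61 (2.12 and 1.74). Droj2, a DnaJ-type co-chaperone gene, had 1.97 and 1.48 (2.52 and 1.29), its arrays lying further apart once rows were centred. CG11630 had 1.82 and 1.62 (2.62 and 2.13), and its mean with blocks and rows, 2.37, was above the 2.27 of kra.

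Transcription factor genes followed. Sox21b, of the Sox family, had 1.89 and 1.54 (2.45 and 1.75). NFAT, the fly member of the NFAT family, had 1.77 and 1.57 (2.21 and 1.68). erm, a zinc finger gene known from neural progenitors, had 1.54 and 1.46 (2.02 and 1.53). In each of the 3 the arrays lay close together with medians centred, and array 1 was the higher with rows centred. Their larger limma adjusted p of the 2 fits was 0.00017, 0.000175 and 0.0002.

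Further positive genes were Svil, by and Mlc-c. Svil, a supervillin homologue, had 2.02 and 1.46 (1.73 and 1.66). by, the fly tensin at integrin contacts, had 1.86 and 1.80 (1.91 and 1.29). Mlc-c, the essential light chain of non-muscle myosin, had 1.48 and 1.77 (1.67 and 1.39), with array 2 the higher under medians. For by the means were 1.83 ± 0.04 and 1.60 ± 0.44 (SD, n = 2 each).

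The remaining members of the positive 15 were of mixed roles. rig, a Gemin5 homologue of the SMN complex that assembles splicing snRNPs, had 1.70 and 2.03 (1.75 and 1.52). tw, a protein O-mannosyltransferase gene, had 2.06 and 1.28 (2.00 and 1.40). EDTP, a phosphoinositide phosphatase first purified from eggs, had 1.501 and 1.37 (1.57 and 1.44), all 4 within 0.20 of each other. nebu had 1.85 and 1.72 (1.79 and 1.51), and CG1024 had 1.90 and 1.42 (2.04 and 1.14). The choice of these 15 required a positive ratio on both arrays under both centrings, so that agreement is no result. Their larger limma adjusted p was at most 0.000676.

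On the negative side the arrays often lay far apart. pippin, a solute transporter gene, had -1.89 and -0.69 (-2.13 and -1.14), a mean of -1.29 ± 0.85 with medians (SD, n = 2; limma adjusted p = 6.67e-05) and -1.64 ± 0.70 with blocks and rows (SD, n = 2; limma adjusted p = 0.000676). PolH, which encodes the translesion DNA polymerase eta, had -1.94 and -0.56 (-2.52 and -0.92). For both genes array 1 was the further below 0.

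Exn had -1.93 and -0.62 (-2.31 and -0.17). CG4287 had -2.02 and -0.16 (-2.28 and -0.34). In both, array 2 was within 0.35 of 0 with blocks and rows centred. For woc, a zinc finger gene of chromatin, with -0.67 and -2.41 (-0.24 and -2.01), array 1 was the nearer to 0. Standard deviations of these 3 with blocks and rows centred were 1.51, 1.37 and 1.26 (n = 2 each), larger than the size of their means, and their calls rest on the spread that limma borrows from other genes.

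Hcf, a transcriptional co-regulator gene, had -1.5 and -0.93 (-1.60 and -0.82). Mekk1, a stress kinase gene at the head of the p38 and JNK cascades, had -2.30 and -0.996 (-1.71 and -0.54). btsz, a synaptotagmin-like gene of apical membranes, had -1.74 and -0.73 (-1.66 and -0.53). Array 1 was the further from 0 in all of these. Arrays lay closer together for stum, a membrane protein gene of mechanosensory neurons, at -1.21 and -1.06 (-1.39 and -1.04). Gasz, which anchors piRNA factors at the mitochondrion, had -1.001 and -1.14 (-1.33 and -1.16). Arc1, a Gag-like capsid gene known from synapses, had -0.79 and -1.35 (-1.54 and -1.80). These 3 showed a standard deviation under 0.40 with either centring. CG1698 had -1.72 and -1.06 (-1.19 and -1.08), CG2767 -1.34 and -0.78 (-2.05 and -1.17), CG8611 -0.98 and -1.11 (-1.45 and -1.19) and CG11970 -1.20 and -0.83 (-1.57 and -0.54). In the fit with the S3 arrays, CG4287 was not called under either centring (limma adjusted p = 0.0668 and 0.0592) and Arc1 not with medians (limma adjusted p = 0.187).

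**Figure D4:**
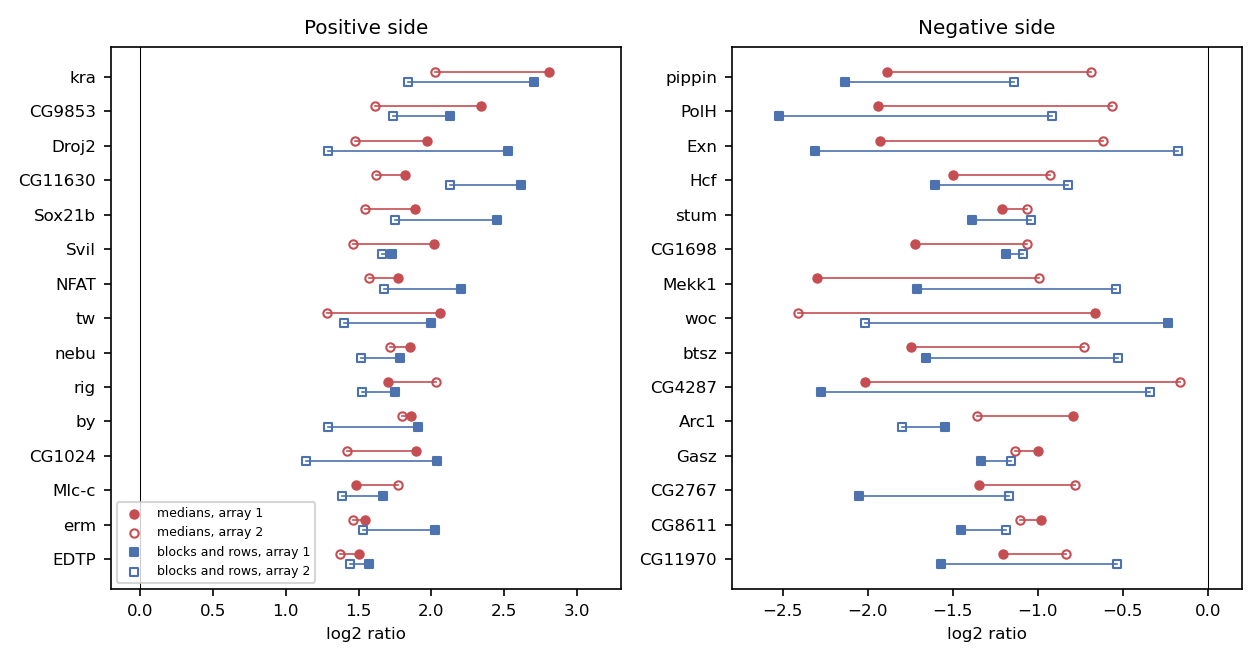
Log2 ratios of the 15 genes on each side that had the largest mean under both centrings; filled symbols are array 1 and open symbols array 2, red circles centred on array medians and blue squares on print blocks and rows. The distance between arrays varies, from Svil at 1.73 and 1.66 to Exn at -2.31 and -0.17 with blocks and rows centred. Exn, woc and CG4287 have 1 array within 0.35 of 0 under that centring.

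Lists of genes by role are set out next, with the share of members called under both centrings where a list has over 4; 15.8% of all genes were called, and no list's share was tested. Of the 96 genes called under both that the naming rule selected, 71 were on both designs, and in the fit with the S3 arrays 40 of them kept both calls. Another 17 kept neither: CG4287, Tudor-SN, c(3)G, pasha, Prp4k, mRpL54, Ubr1, Hsp68, Cyp4ac1, Ugt35D1, Ranbp21, Rab40, Vps51, Plc21C, Zasp66, Prm and ocn. With array medians alone 7 were not called there (Arc1, tapas, cpa, eIF4E5, rdgA, GATAe and nSyb). With blocks and rows alone 7 were not called, namely spd-2, LpR1, Klp98A, COX6AL, BckdhA, TrissinR and the chromatin assembly factor gene described below.

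The pathways that the drug acts on were thinly represented. Of the folate and nucleotide synthesis list 4 genes were on the design, and limma called 0 under both centrings (1 with array medians and 3 with blocks and rows at an unadjusted p under 0.05, none under both). Ts, the thymidylate synthase gene, had 0.52 and -0.41 (1.27 and -0.09), with arrays of opposite sign under either centring. Adk3, an adenylate kinase gene, had 0.997 and 0.55 (0.47 and 0.07) and was called with medians only (limma adjusted p = 0.0186 and 0.365). Adsl, of purine synthesis, had -0.88 and 0.08 (-0.67 and -0.32), and CG3788 had -0.01 and -0.17 (0.57 and 0.54); neither was called.

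DNA replication had 1 of 7 members (14.3%) called under both centrings: the gene for the large subunit of the chromatin assembly factor that follows the fork (Entrez ID 31801) was positive at 1.11 and 0.81 (0.60 and 0.90) (larger limma adjusted p = 0.0146). The list median was -0.18 with medians and 0.03 with blocks and rows, beside -0.14 and -0.01 over all genes. Of 10 DNA damage genes 1 (10%) was called, Tfb1 of the repair and transcription factor TFIIH, positive at 2.01 and 1.62 (1.25 and 1.03). PolH, given above and negative, is not on that list. The list median was -0.50 with medians and 0.01 with blocks and rows. Of 13 cell cycle genes 3 (23.1%) were called, all positive. They were eco, the cohesin acetyltransferase gene, at 1.35 and 1.58 (1.15 and 1.24), and the centriole and centrosome genes ana2 at 1.44 and 1.10 (1.01 and 0.80) and spd-2 at 1.17 and 1.08 (0.74 and 0.79). With array medians alone 8 cell cycle genes were positive and 3 negative, beside 20.9% and 18.0% of all genes. The list median of 0.75 became 0.03 once rows were centred. The gene eco was spotted at 2 positions, whose means were 1.86 and 1.07 with medians but 2.16 and 0.23 with blocks and rows.

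Called members of the germline lists were of both signs, as over all genes, where 15.8% were called (10.7% positive and 5.13% negative). Among 16 genes of oocyte polarity and localised RNA, 2 were positive, 1 negative and 13 not called (18.8% called). heph, the polypyrimidine tract binding protein that represses oskar translation in the oocyte, had 2.10 and 1.66 (1.28 and 1.08). larp, which binds mRNA caps and poly(A) binding protein, had 1.99 and 1.51 (1.18 and 0.99), and its 2 positions were at 0.73 and 1.44 with blocks and rows. Tudor-SN had -0.43 and -1.04 (-0.52 and -0.87) and was the negative member (larger limma adjusted p = 0.0252). Of 13 genes of the stem cell niche, growth control and differentiation 1 (7.69%) was called, the Hippo kinase gene hpo, positive at 0.91 and 0.86 (1.34 and 1.24). Of 11 meiosis and egg activation genes 1 (9.09%) was called, c(3)G, the transverse filament of the synaptonemal complex, positive at 0.38 and 1.14 (0.68 and 0.90). With array medians 9 of these 11 had been called, 5 positive and 4 negative, beside 39.0% of all genes. Of these 9, 8 did not stand under row centring.

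The piRNA and small RNA list had 1 positive and 3 negative members of 14 (28.6% called). Gasz is given above. tapas, a Tudor domain gene of the piRNA cycle in germ cells, had -1.05 and -0.52 (-1.47 and -0.82), and Tudor-SN was the third. pasha, the microprocessor partner of Drosha in microRNA processing, was positive at 0.98 and 0.55 (0.78 and 0.60). The list median was -0.29 with medians and -0.03 with blocks and rows. zuc, the nuclease that forms piRNA ends, had 1.69 and 0.85 (0.13 and 0.14), called with medians and not with rows centred (limma adjusted p = 0.671).

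Yolk uptake had 1 positive and 1 negative member of 8 (25% called), and these were the paired lipoprotein receptor genes. LpR1 had 1.10 and 1.09 (1.10 and 0.44), while LpR2 had -0.91 and -0.92 (-0.85 and -0.75). The vitelline membrane and chorion list had 1 gene on the design, CG13083, at -0.81 and -1.26 (0.09 and -0.46). It was called negative with array medians and not with rows centred (limma adjusted p = 0.00148 and 0.566). Follicle cell signalling had 3 positive and 2 negative members of 16 (31.2% called). Patj, of the apical polarity complex, had 1.34 and 1.24 (1.49 and 0.96). The ecdysone pathway genes ftz-f1, a nuclear receptor, and br, a zinc finger factor, had 1.69 and 0.93 (1.12 and 0.63) and 0.72 and 0.92 (0.63 and 0.82) respectively. Mekk1, given above, was negative, as was tai, a co-activator of the ecdysone receptor, at a mean of -1.24 with medians and -0.76 with blocks and rows (chosen after its values were seen). ftz-f1 was spotted at 2 positions, at 1.45 and 0.30 with blocks and rows.

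Of the 15 genes on the actin list (13.3% called) 1 was positive, by, and 1 negative, cpa, the capping protein alpha gene, at -0.96 and -0.83 (-1.27 and -1.13). Svil and Mlc-c, both positive and given above, are not on that list. Of 17 microtubule genes 2 (11.8%) were called, both positive: the kinesin gene Klp98A at 1.57 and 1.005 (1.34 and 0.54) and the minus-end binding protein gene Patronin at 0.75 and 1.03 (0.84 and 0.37). With array medians 7 microtubule genes were positive and 4 negative, beside 20.9% and 18.0% of all genes.

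Chromatin regulators had 3 positive and 1 negative member of 10, the highest share (40%) among lists of at least 4 members. simj, of the nucleosome remodelling and deacetylase complex, had 2.19 and 1.77 (1.63 and 1.19). Atxn7, of the SAGA deubiquitinase module, had 2.21 and 1.40 (1.59 and 0.67). The chromatin assembly factor gene and the negative woc are given above. Splicing and RNA-binding proteins had 4 positive and 0 negative members of 22 (18.2% called), namely rig, heph, the SMN complex gene Gem2 at 1.11 and 1.03 (1.31 and 1.08) and the spliceosome kinase gene Prp4k at 0.13 and 1.31 (0.47 and 1.11). For Prp4k array 1 was near 0 with medians. The list median was -0.16 with medians and -0.08 with blocks and rows, beside -0.14 and -0.01 over all genes.

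Translation factors and tRNA synthetases had 4 positive and 1 negative member of 20 (25% called). Besides kra and larp, TyrRS, the tyrosyl-tRNA synthetase gene, had 0.61 and 0.88 (0.73 and 0.62) and the cap-binding protein gene eIF4E5 had 0.77 and 0.68 (1.18 and 0.72). The negative member was the release factor gene eRF1, at a mean of -0.68 with medians and -1.23 with blocks and rows (chosen after its values were seen). Cytosolic ribosomal proteins had 0 of 6 called under both by limma (0 with array medians and 3 with blocks and rows at an unadjusted p under 0.05), with list medians of -0.05 and -0.08. Of 3 mitochondrial ribosomal protein genes 2 were positive, mRpL16 at 1.38 and 0.88 (1.28 and 0.87) and mRpL54 at 0.78 and 0.58 (1.05 and 0.42). Of 9 respiratory chain genes 1 (11.1%) was called, the cytochrome oxidase subunit gene COX6AL, negative at -1.11 and -1.60 (-0.33 and -0.998).

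Called genes of protein folding and turnover were of both signs, as over all genes (10.7% positive and 5.13% negative). Of 20 chaperone genes 3 were positive and 1 negative (20% called). CCT2, of the cytosolic chaperonin, had 1.39 and 1.07 (1.05 and 1.01), and ERp60, a disulfide isomerase of the endoplasmic reticulum, had 1.29 and 0.41 (1.40 and 0.45). Hsp68, the heat-inducible Hsp70-type gene, had -1.93 and -0.80 (-1.26 and -0.23) and was negative (larger limma adjusted p = 0.0368). Of 29 proteasome and ubiquitin genes 3 were positive and 3 negative (20.7% called). The positive members were ligase and activating enzyme genes: Ube3a at 1.18 and 1.09 (1.83 and 1.29), the SUMO-activating enzyme gene Uba2 at 1.60 and 1.73 (1.57 and 1.16) and Ubr1 at 1.16 and 1.05 (1.501 and 0.59). Rpt5, an ATPase of the proteasome cap, was negative at -1.51 and -0.35 (-2.13 and -0.47). The other 2 negative members, chosen after their values were seen, were Prosbeta2R2 with means of -1.07 and -0.56 and Ublcp1 with -0.71 and -0.71.

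Detoxification enzymes had 1 positive and 2 negative members of 14 (21.4% called). Cyp6u1, a cytochrome P450 gene, had 1.95 and 1.47 (1.30 and 1.35), while Cyp4ac1 had -0.87 and -0.47 (-0.67 and -0.57) and the glucuronosyltransferase gene Ugt35D1 had -0.79 and -0.84 (-0.38 and -0.80). Cyp6u1 and Cyp4ac1 were thus of opposite sign, which does not describe the P450 family as a whole. Of 8 redox genes 1 (12.5%) was called, the sestrin gene Sesn, positive at 1.42 and 1.21 (1.05 and 0.71). Sod2, Sod3 and Prx3, of superoxide and peroxide defence and chosen after their values were seen, were called negative with array medians (means of -0.78, -0.67 and -0.88) but not with rows centred (0.01, -0.07 and -0.53).

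Nuclear transport had 4 positive and 1 negative member of 16 (31.2% called). The GTPase gene Ran had 1.30 and 1.01 (0.64 and 0.81), the importin beta gene Fs(2)Ket 1.01 and 0.71 (0.59 and 0.83) and the nuclear pore gene Nup93-1 1.30 and 0.75 (0.93 and 1.05). Tnpo-SR, an importer of splicing factors, was the other positive member, at means of 1.24 and 0.67 (chosen after its values were seen). Ranbp21, a nuclear export factor gene, had -1.23 and -0.53 (-0.88 and -0.61). The list median was 0.66 with medians and 0.17 with blocks and rows. Secretory and endosomal transport had 6 positive and 0 negative members of 34 (17.6% called). Sec16, of the sites where vesicles leave the endoplasmic reticulum, had 1.06 and 1.08 (1.5 and 1.18). Rab40 had 1.08 and 0.95 (0.87 and 0.71), Rab32 1.18 and 0.78 (0.65 and 0.91) and the tethering factor gene Vps51 1.41 and 0.48 (1.20 and 0.47). Over the 34 genes the median was 0.32 with medians and 0.23 with blocks and rows, and 21 and 27 of the 34 means were above 0, beside 1068 and 1157 of all 2377.

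Lipid genes had 2 positive and 3 negative members of 23 (21.7% called). Cerk, the ceramide kinase gene, had 2.18 and 1.79 (1.41 and 1.24), and rdgA, the diacylglycerol kinase of photoreceptors, had 1.13 and 0.68 (1.13 and 0.68). rdgA was spotted at 2 positions, whose means were 1.11 and 0.69 with medians and 0.82 and 0.98 with blocks and rows. In the latter case they were at 0.80 and 1.46 on array 1 and at 0.85 and 0.51 on array 2. BckdhA, of branched-chain amino acid breakdown, had -1.68 and -0.97 (-1.04 and -0.55), and the phospholipase C gene Plc21C had -1.04 and -0.42 (-1.56 and -0.40). The other negative member was bbc, a phosphotransferase gene of phospholipid synthesis, at means of -0.68 and -1.23 (chosen after its values were seen). Among 15 stress and growth kinase genes 2 were positive and 2 negative (26.7% called). Mink, the misshapen-family kinase gene, had 2.17 and 1.71 (1.51 and 1.19) and stood with hpo, while Pkc98E, a protein kinase C gene, had -1.53 and -0.66 (-1.08 and -0.74) and stood with Mekk1.

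Genes known from other tissues were read the same way. Developmental transcription factors had 1 positive and 2 negative members of 16 (18.8% called): pros, known from neural lineages, at 1.78 and 0.91 (2.44 and 1.15), GATAe of the gut at -0.45 and -1.28 (-1.39 and -1.41) and the proneural gene amos at -1.43 and -1.63 (-0.69 and -0.86). Of 11 muscle sheath markers (36.4% called) 2 were positive, kon at 1.43 and 0.99 (1.56 and 1.10) and Prm at 0.77 and 0.72 (0.90 and 0.38), and 2 negative, tn at -1.29 and -0.93 (-0.87 and -1.01) and Zasp66 at -0.74 and -0.66 (-0.97 and -0.61). Of 17 nervous system markers (23.5% called) 1 was positive, the potassium channel gene Shab at 1.47 and 1.11 (1.53 and 0.56), and 3 negative: TrissinR, a neuropeptide receptor gene, at -2.24 and -1.43 (-1.47 and -0.22), the synaptobrevin gene nSyb at -0.88 and -0.47 (-1.66 and -0.81) and onecut at -0.26 and -1.37 (-0.25 and -1.12). Of 7 testis markers (28.6% called) 1 was positive, ocn at 0.96 and 0.78 (0.80 and 0.52), and 1 negative, COX6AL. Fat body markers had 0 of 4 called under both by limma (1 and 0 at an unadjusted p under 0.05 in the 2 fits) and gut markers 0 of 1 (0 and 0). Summed levels of these markers cannot be had from ratios, and their part in the results was not tested.

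The medians of these marker lists depended on the row step. With array medians centred the median was -0.54 for muscle, -0.52 for the nervous system, -0.47 for testis and -0.54 for developmental factors. With blocks and rows centred these became -0.02, -0.14, 0.01 and 0.02. The 913 genes known only by a CG number had a median of -0.29 with array medians and -0.01 with rows centred, against 0.01 and -0.01 for the 1464 genes with a name. Under both centrings 12.7% of the former and 17.8% of the latter were called.

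**Figure D5:**
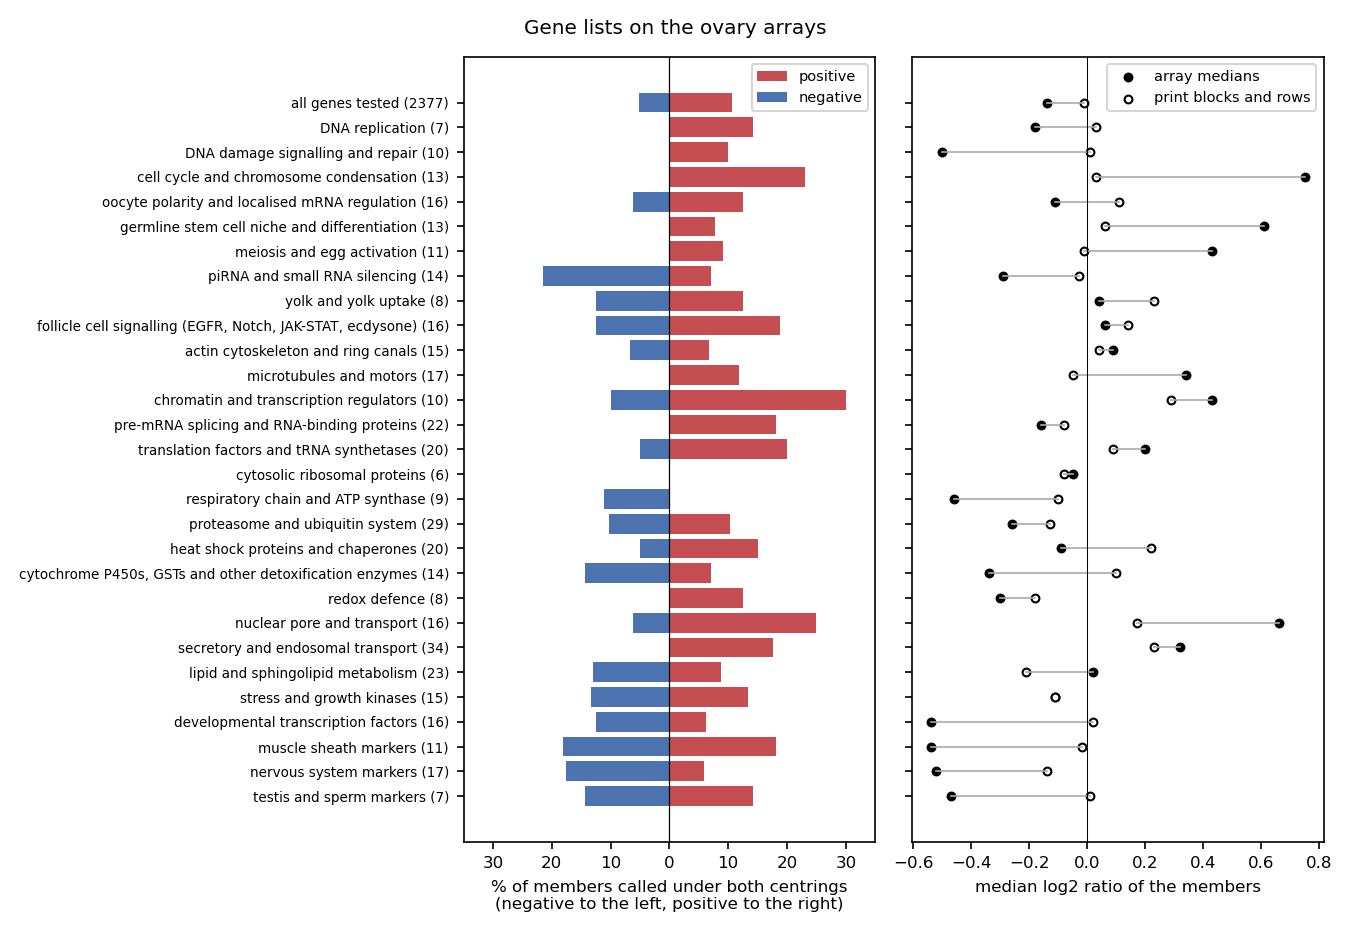
The left plot gives, for each list with at least 6 members on the design (number in brackets), the share of members called positive (red) and negative (blue) under both centrings. The right plot gives the median log2 ratio of the members with array medians (filled) and with print blocks and rows centred (open); most medians lie nearer 0 in the latter, such as cell cycle at 0.75 and 0.03.

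Some large mean ratios came nearer to 0 once rows were centred. Of genes called positive with array medians, Agpat1 had 1.40 and 1.57 (0.13 and 0.29), Arfip 1.39 and 1.06 (0.11 and -0.22) and Zif 1.27 and 1.34 (0.14 and 0.14). Cse1, the nuclear exporter of importin alpha, had 1.57 and 0.97 (0.09 and 0.14). Both arrays were high in each of these before rows were centred and within 0.30 of 0 afterwards. On the negative side odd, a zinc finger gene of segmentation, had -2.18 and -0.97 (-1.14 and 0.03), Pde11 -0.73 and -1.505 (0.04 and -0.30), CG13506 -0.85 and -1.21 (-0.08 and 0.00) and CdGAPr -0.66 and -1.20 (0.10 and 0.01). None of these 8 was called with blocks and rows centred (limma adjusted p from 0.128 to 0.912). TrissinR, given above, went from a mean of -1.84 to -0.85 and was still called (limma adjusted p = 0.0298; SD 0.89, n = 2), though not in the fit with the S3 arrays (limma adjusted p = 0.0765).

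Called genes were spread over the chromosome arms. Under both centrings 11.9% of the 496 genes of arm 2L were called, 16.3% of 453 on 2R, 17.0% of 452 on 3L, 16.4% of 572 on 3R and 17.5% of 383 on X. Positive and negative calls numbered 40 and 19 on 2L, 47 and 27 on 2R and 60 and 17 on 3L. They numbered 52 and 42 on 3R and 53 and 14 on X, beside 254 and 122 over all genes. These shares and counts were not tested against each other.

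The S3 arrays, of another design and normalised apart, were not compared with the ovary by a test, and their direction is no better settled. Array 2 of the S3 set correlated with the other 3 at r from -0.19 to 0.20 over genes with array medians centred, and from 0.06 to 0.14 with print blocks centred. Its sign was turned in the median-centred fit with the ovary arrays, and is as deposited in the values below. Of the 30 leading ovary genes 24 were on the S3 design. With S3 print blocks centred, 7 of the 24 had the same sign on all 4 S3 arrays, and 1, Arc1, was at least 0.5 from 0 on each (-1.14, -0.69, -2.97 and -1.66). With the sign of S3 array 2 turned 3 of the 24 had the same sign on all 4, Arc1 not among them. The share over all genes of the S3 design is not given here, so neither count can be called high or low. The gene kra was at 0.00, 0.23, 0.21 and 0.17 there, and Droj2 at 0.21, 0.32, 0.12 and 0.06.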

How the data were processed

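The authors deposited 1 normalised log ratio per spot and array, used here as log2; the base and the numerator are not given in the sources used here. Spots with exactly 1 gene in the probe annotation were averaged per gene, 2 neighbouring spots for 2089 genes and more for 288. Symbols were updated through a RefSeq table (Release 6), which matched all 2377. Centring used the array median (0.11 and 0.06 as deposited) and, separately, the medians of print blocks (32 of 528 spots) and then of each row of 24 spots. The mean of 2 arrays was tested against 0 with limma 3.58.1 (lmFit, eBayes, Benjamini-Hochberg over all genes; threshold 0.05), after a test on simulated data. The number of arrays limits the precision.

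The genes and lists were chosen with earlier results of these data known. The 3 genes that matched a list by name only (Prosap, Cyp1, Kap3) were taken out after the files were seen and before list values were computed. Named were the 15 genes per side with the largest smaller mean of both centrings. They were taken from genes called under both, with the same sign on both arrays under both. Also named were up to 4 called members per list, all folate genes, and up to 5 genes per side whose mean dropped most on row centring. Alternatives changed the centring, scale, spot filter, threshold and source of the spread.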

Additional observations from a re-analysis of the deposited data

How the results depend on the processing

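Putting S3 arrays in the fit changes both the spread and the genes tested. Where ovary blocks and rows were centred, the S3 arrays were centred on print blocks only. In that fit 306 of 1816 genes were called with array medians, 211 with blocks and rows and 106 under both. Added after the data were seen were that last count, the same fit with S3 array 2 not turned (270, 211 and 103), and the ovary arrays alone on the same 1816 genes (722, 391 and 242). Leaving out 1 ovary array in the fit with S3 arrays gave 0 to 1 and 0 to 37 calls. Testing spots in place of genes gave 5040 and 3411 calls among 16896 spots. With the sign of array 2 turned, limma called 0 genes with array medians, with blocks and rows, and under both (0 and 1 genes at an unadjusted p under 0.05). That sign would apply if the dyes were swapped and the deposited ratios not put in the same direction. The sources used here do not settle it. Taking 1.5-fold on both arrays without a test gave 380 genes with blocks and rows and 216 under both. With no centring 559 genes were positive and 284 negative of 843. Row positions pooled over blocks gave 767 calls, and 501 under both, of which 346 were shared with the 376. The remaining counts stayed within 1.5 times. Of 109 named genes, mean ratios changed sign for Arfip (-0.06), CG3788 (0.56) and CdGAPr (0.05) with blocks and rows, and for Ts (-0.05) with block medians; the cause was not tested. Requiring 2 spots left every gene in. A prior trend on spot number was not run, since it could not be fitted. No paired analysis was possible because a single group was used, with treated and untreated RNA on the same array.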
